A study of Homo sapiens with 24 samples.

Results

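The genes described here encode transcription factors of the ETS family: ETS1, ETS2, ELK1, ELK3, ELF1, ELF3, EHF, GABPA, ETV4, and ETV5. They were chosen by name, from several subgroups of the family and not by a measured value, but with earlier results of these data known. All 10 were found among the 20098 protein-coding genes of the GENCODE annotation on hg19 (GRCh37). Each gene was examined for binding of the calcium-binding proteins S100A8 and S100A9 to its chromatin. A peak was assigned to a gene when its summit, the base of strongest signal, lay in the gene body or within 50 kb of it.

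MCF-10A is a nontransformed human mammary epithelial cell line, and its derivative MCF-10A–ER-Src carries v-Src fused to the ligand-binding domain of the estrogen receptor. In these cells 4-hydroxytamoxifen (TAM) turns the Src oncoprotein on and starts transformation, whereas ethanol (EtOH) is the vehicle. Derivatives stably expressing S100A8-Flag or S100A9-Flag received 1 μM TAM or EtOH for 24 hours, and chromatin was cross-linked and immunoprecipitated with a Flag antibody, so that the tagged protein and not the endogenous one was followed. The 11 libraries used here were S100A8-Flag in EtOH (n = 2), S100A8-Flag in TAM (n = 3), S100A9-Flag in EtOH (n = 3), and S100A9-Flag in TAM (n = 3). The study calls its replicates biological, but the sample labels do not say that they were separate cultures, so p values measure the spread between these libraries.

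ETS proteins share a winged helix-turn-helix domain that binds DNA around a GGAA core, and members differ in the partners and signals that bring them to it. Several are phosphorylated by mitogen-activated protein kinases downstream of receptor and Src signaling and often act beside AP-1 at enhancers, whereas others bind promoters of broadly expressed genes. In breast epithelium, ELF3 and EHF belong to the epithelium-specific branch, and ETS1, ETS2, ETV4, and ETV5 have been linked to growth factor signaling, migration, and invasion.

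Peaks with q ≤ 1e-07 were counted. The EtOH libraries held 4327 and 4609 such peaks for S100A8-Flag and 3595, 1853, and 4596 for S100A9-Flag. The TAM libraries held 29381, 24117, and 21518 for S100A8-Flag and 25494, 23994, and 40735 for S100A9-Flag. The mean was 7.26-fold higher in TAM than in EtOH, and every count at a gene has to be read against that difference. Read depth is unknown, so that a difference in depth and a difference in binding cannot be told apart from the lists. As a check of the cell type, a promoter peak, whose summit lies no more than 1500 bp before or 250 bp past a transcription start site (TSS), was looked for at 8 basal mammary epithelial markers. At least 1 TAM library had one at 6 of them (KRT5, KRT14, KRT17, EGFR, ITGB4, and LAMB3), beside 59.8% of all protein-coding genes. In EtOH 3 of the 8 had one in at least 1 library, beside 28.6%. TP63 and CDH1 had none in any library. Among 9 genes not expected in these cells, such as PTPRC and ESR1, only SYT1 had a promoter peak, in 2 TAM libraries. Peaks do not measure RNA and the markers are few, so this bears on identity only in part.

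Added over the 10 ETS genes, S100A8-Flag had 10 peaks in each of its 2 EtOH libraries and 42, 30, and 35 peaks in TAM. S100A9-Flag had 5, 4, and 5 peaks in EtOH and 32, 36, and 58 in TAM. The groups did not overlap for either protein. Set against the size of each list, the share of library peaks that lay at the 10 genes was 0.182% ± 0.0547 in EtOH (SD, n = 5). The same share in the TAM libraries was 0.141% ± 0.0146 (SD, n = 6).

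Each protein-coding gene with a peak in at least 2 libraries, 18126 genes including all 10 ETS genes, was tested for a difference in peaks per library between TAM and EtOH. The treatment labels were permuted exactly within each protein, two-sided, and p values were adjusted over all genes tested; the smallest p this design allows is 0.01. Seen this way, 7 of the 10 ETS genes (ETS1, ETS2, ELK3, ELF3, EHF, ETV4, and ETV5) rose in TAM and 0 fell, beside 67.6% of all genes tested that rose. The share among the ETS genes was thus near the background and is not a result about the family. With peaks counted in the gene body alone, or with the 1853 top peaks of each library, 0 of the 10 passed, beside 0% of all genes tested. When peaks at promoters of other genes were left out, an alternative chosen after seeing the data, 7 of 10 rose, beside 43.9% of all genes tested. The values of the 2 groups did not overlap at 6 of 10 ETS genes, all of those 7 but ELK3, beside 40.2% of all genes tested. The median difference was 2.54 peaks per library over the ETS genes and 2.42 over all genes tested. Peak counts by gene and library are drawn in the grid of peaks.

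**Figure D1:**
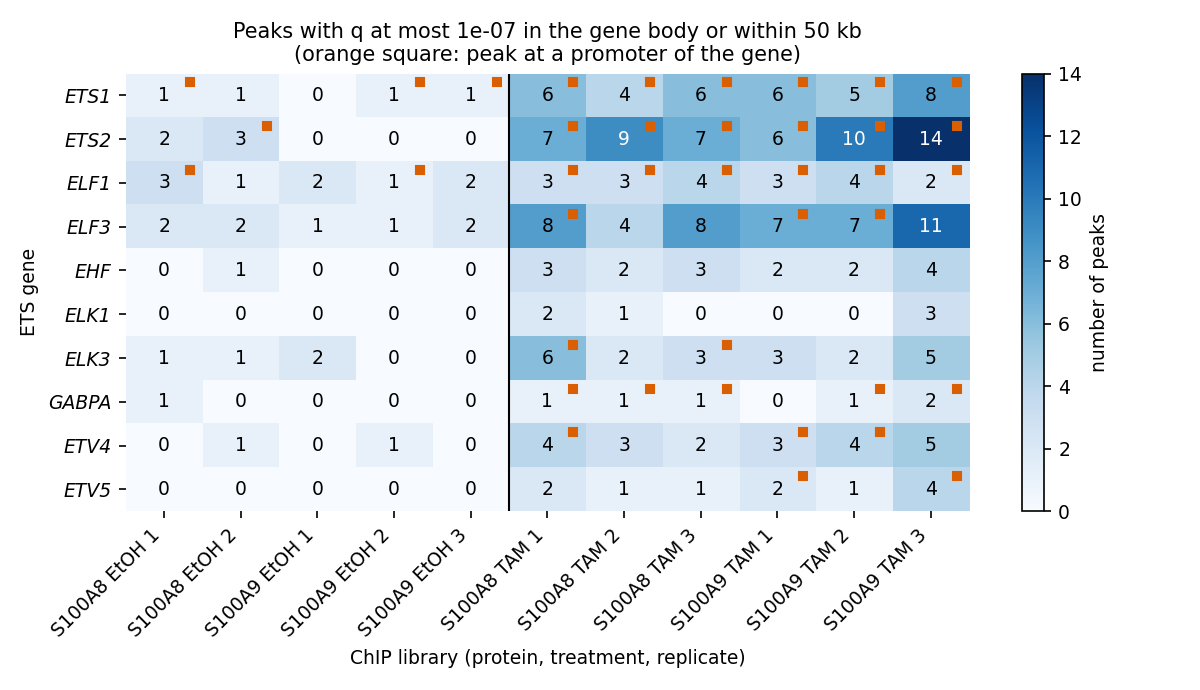
Number of peaks with q ≤ 1e-07 in the gene body or within 50 kb of it, for each ETS gene and each of the 11 libraries, grouped by protein and treatment. Orange squares mark a peak at a promoter of the gene; the 5 EtOH libraries hold 0 to 3 peaks at a gene and the 6 TAM libraries 0 to 14, the highest at ETS2 in replicate 3 of S100A9-Flag.

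ETS1 and ETS2 are the founding members of the family, nuclear effectors of Ras and mitogen-activated protein kinase signaling. A site is a region called in at least 2 replicates of 1 condition, merged over the 4 conditions. ETS1 had a site across its promoter at chr11:128391716-128392899 (GRCh37), with the summit 32 bp upstream of an internal TSS and 65216 bp from the 5′ end of the gene, and ETS2 had one at chr21:40176880-40178076, with the summit 25 bp upstream of a TSS. The sequences 50 bp to either side of the summits, shown to give the base composition under these promoter peaks, lie at chr11:128392187-128392287 (minus strand) and chr21:40177744-40177844 (plus strand) and reach into the first exons. Neither window held any of the motifs searched, which are spelled out further on, so no base is in capitals.
ETS1 promoter: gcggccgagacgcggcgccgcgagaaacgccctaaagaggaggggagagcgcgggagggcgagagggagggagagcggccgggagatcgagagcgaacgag
ETS2 promoter: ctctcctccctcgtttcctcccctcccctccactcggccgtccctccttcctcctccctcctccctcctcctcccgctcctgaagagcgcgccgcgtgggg

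ETS1 had 1 and 1 peaks in the S100A8-Flag EtOH libraries and 0, 1, and 1 in those of S100A9-Flag, against 6, 4, and 6 and 6, 5, and 8 in TAM. Every TAM library exceeded every EtOH library. The difference averaged over the proteins was 5.00 peaks per library (adjusted p = 0.0219, exact permutation, higher in 6 of 6 TAM libraries), the smallest adjusted p possible here. Of 5 sites at the gene, the promoter site was called in 3 EtOH and all 6 TAM libraries. Its fold enrichment over the input was 7.69 in S100A8-Flag EtOH replicate 1, 9.14 and 7.57 in S100A9-Flag EtOH replicates 2 and 3, and between 8.36 and 17.1 in TAM. The promoter site was thus the most often called one at ETS1 and overlapped in fold enrichment between treatments. The other 4 ETS1 sites were distal, and the most often called of them lay in an intron, 2154 bp upstream of a further TSS, and was called in 5 TAM libraries and in 0 EtOH libraries. The next, chr11:128358508-128358745, also in an intron, was called in 1 EtOH and 3 TAM libraries.

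At ETS2 the EtOH counts were 2 and 3 for S100A8-Flag and 0, 0, and 0 for S100A9-Flag, and the TAM counts were 7, 9, and 7 and 6, 10, and 14. Both proteins had more peaks in every TAM library than in any EtOH library, and at q ≤ 1e-07 the EtOH peaks were all of S100A8-Flag. With every deposited peak included, S100A9-Flag had 3, 1, and 10 peaks at ETS2 in EtOH and S100A8-Flag 4 and 6. The difference was 7.58 peaks per library (adjusted p = 0.0219, exact permutation, higher in 6 of 6 TAM libraries), the largest of the 10 genes in the window of 50 kb. In a window of 10 kb the call was lost, beside 23.05% of all genes tested that rose. The difference there was 3.83, equal to that at ETS1, where the call was kept. It was 2 in the gene body alone, below the 3.5 of ETS1, and turned to −0.333 with the 1853 top peaks of each library. Whether TAM added more peaks for S100A9-Flag than for S100A8-Flag was tested directly: the effects differed by 4.83 peaks per library, with an exact two-sided p of 0.09 and an adjusted p of 1, and this difference did not pass. Per length, the mean of the TAM libraries at ETS2 came to 7.38 peaks per 100 kb, higher than at 96.3% of the genes tested.

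ETS2 had 7 sites, 6 of them distal, which means away from any promoter window of a protein-coding gene. Its promoter site was called in 1 EtOH library (S100A8-Flag replicate 2) and 5 TAM libraries, and the remaining TAM library had a promoter peak outside that site. The site ranked first among the distal ones, chr21:40170465-40170734, lay 6502 bp upstream of a TSS and was called in both S100A8-Flag EtOH libraries, with fold enrichments of 7.28 and 9.64. In TAM it was called in S100A8-Flag replicate 1 and in all 3 S100A9-Flag libraries, between 8.99 and 11.9. A second upstream site, chr21:40159483-40159959, was called in 0 EtOH and 6 TAM libraries with fold enrichments from 6.78 to 14.3, and a downstream one, chr21:40203446-40203966, added after its values were seen, likewise in 0 and 6. Sequence around the summits of the upstream pair, at chr21:40170555-40170655 and chr21:40159538-40159638 (both plus strand), is shown because each held an AP-1 motif, printed in capitals. The second of them was added after its values were seen.
ETS2 upstream, nearer: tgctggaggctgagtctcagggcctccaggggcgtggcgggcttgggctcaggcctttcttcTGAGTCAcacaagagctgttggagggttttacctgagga
ETS2 upstream, farther: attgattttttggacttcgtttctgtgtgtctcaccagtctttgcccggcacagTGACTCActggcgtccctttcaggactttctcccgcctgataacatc

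ELF3 and EHF are epithelium-specific factors that govern differentiation of glandular epithelia. ELF3 had 2 and 2 peaks in the S100A8-Flag EtOH libraries and 1, 1, and 2 in those of S100A9-Flag, against 8, 4, and 8 and 7, 7, and 11 in TAM. The groups did not overlap, and the difference was 5.83 peaks per library (adjusted p = 0.0219, exact permutation, higher in 6 of 6 TAM libraries). It was 0.833 in the gene body alone and turned to −0.917 with the 1853 top peaks of each library. The call was lost in both settings, in each of which 0% of all genes tested passed, so this loss says nothing about ELF3. In TAM the gene held 6.87 peaks per 100 kb, above 95.2% of the genes tested. Of 8 EtOH peaks summed over libraries, 6 were at the promoter of the neighboring RNPEP gene, an aminopeptidase, and 2 were distal. Of 45 TAM peaks 7 were at RNPEP, 3 at an ELF3 promoter, and 35 distal. This difference in location was not tested. Among all sites, too, the distal ones lacked an EtOH call more often, 77.3% of them beside 50.3% of those at a promoter. The RNPEP site, chr1:201952094-201952663, was called in 4 EtOH and 5 TAM libraries. ELF3's own promoter site was weak, called in 0 EtOH and 3 TAM libraries with fold enrichments from 4.37 to 6.19 and a mean rank at percentile 1.72 of its libraries.

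Among the distal ELF3 sites, chr1:202025670-202026677 and chr1:201992067-201992584 were each called in 1 EtOH and all 6 TAM libraries. The latter, 12589 bp downstream of an ELF3 TSS and past the end of the gene, held an AP-1 motif close to its summit, and the sequence at chr1:201992311-201992411 (plus strand) is shown for it with the motif in capitals; both the site and its sequence were added after its values were seen.
ELF3 downstream: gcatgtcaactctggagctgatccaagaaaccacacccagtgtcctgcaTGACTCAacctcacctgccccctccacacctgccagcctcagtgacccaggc

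EHF had 0 and 1 peaks in S100A8-Flag EtOH and 0, 0, and 0 in S100A9-Flag EtOH, against 3, 2, and 3 and 2, 2, and 4 in TAM. All TAM libraries lay above all EtOH libraries, with a difference of 2.42 peaks per library (adjusted p = 0.0219, exact permutation, higher in 6 of 6 TAM libraries), equal to the median of all genes tested. None of these peaks was at a promoter of EHF. The gene's most often called site, chr11:34706825-34707228, lay 42893 bp downstream of a TSS and beyond the 3′ end, and was called in 1 EtOH and 6 TAM libraries, with fold enrichments from 6.71 to 19.96 in TAM. An intronic site, chr11:34675391-34675829, was called in 0 EtOH and 5 TAM libraries. The sequence at the downstream summit, chr11:34707017-34707117 (plus strand), is printed as the most often called EHF site and held none of the motifs searched. The value of 19.96, from S100A8-Flag TAM replicate 2 alone, was the highest fold enrichment of any site at ELF3 or EHF.
EHF downstream: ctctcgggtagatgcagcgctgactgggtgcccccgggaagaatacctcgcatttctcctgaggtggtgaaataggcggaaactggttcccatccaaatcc

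**Figure D2:**
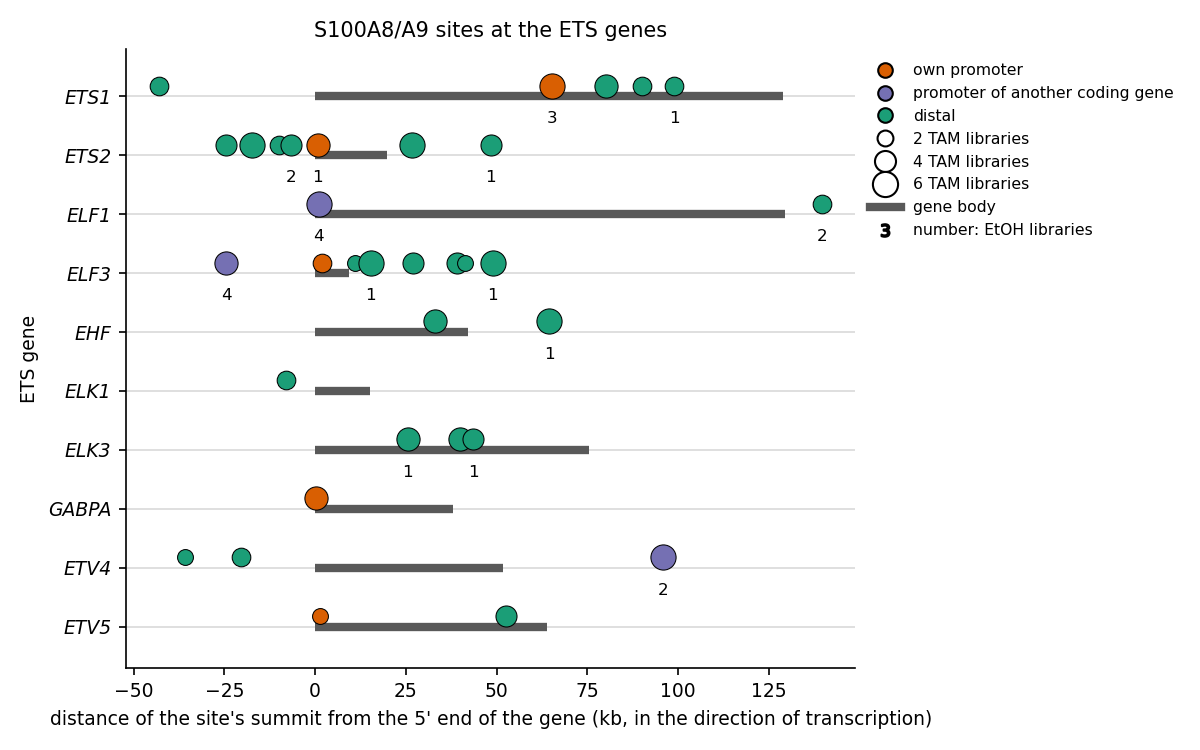
Sites at the 10 ETS genes by distance of the summit from the 5′ end of the gene, in kb, with bars for gene bodies. Circle size gives the number of TAM libraries that call a site, the number under it that of EtOH libraries, and color its class. By their summits, of 34 sites 5 lie at a promoter of the gene itself, 3 at the promoter of a neighbor, and 26 are distal. The ELF1 site counted at its neighbor WBP4 also spans an ELF1 start site.

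ETV4 and ETV5 belong to the PEA3 subgroup, which acts downstream of fibroblast growth factor receptors and Ras. At ETV4 the counts were 0 and 1 for S100A8-Flag and 0, 1, and 0 for S100A9-Flag in EtOH, and 4, 3, and 2 and 3, 4, and 5 in TAM. At ETV5 they were 0 in all 5 EtOH libraries and 2, 1, and 1 and 2, 1, and 4 in TAM. The groups did not overlap at either gene, and at each they were separated by 1 peak. The differences were 3.08 peaks per library for ETV4 and 1.83 for ETV5 (adjusted p = 0.0219 for each, exact permutation, higher in 6 of 6 TAM libraries); both calls were lost at q ≤ 1e-10, and that of ETV4 also in a window of 10 kb. Both EtOH peaks at ETV4, and 7 of its 21 TAM peaks, were at the promoter of DHX8, a neighbor that encodes an RNA helicase, where chr17:41560989-41561583 was called in 2 EtOH and 6 TAM libraries. The next site, chr17:41677297-41677548 in an intron annotated to DHX8, was called in 0 EtOH and 3 TAM libraries. ETV4's own promoters had a peak in 3 TAM libraries, at more than 1 TSS, and no site was formed there.

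ETV5 had a promoter site, chr3:185826602-185826994, with its summit 45 bp downstream of a TSS, called in 0 EtOH libraries and in 2 TAM libraries, both of S100A9-Flag. An intronic site of the gene, chr3:185775425-185775655, was called in 4 TAM libraries. An ETS motif beside that summit, in capitals, is shown within 30 bases at chr3:185826679-185826708 (minus strand); the stretch lies in an untranslated exon and does not include the summit itself.
ETV5 promoter: caggggggagatCGGAAGgggcgtccggcc

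ELK1 and ELK3 are ternary complex factors, which join serum response factor at immediate early genes; ELK1 mainly activates, and ELK3 can repress. ELK3 had 1 and 1 peaks in S100A8-Flag EtOH and 2, 0, and 0 in S100A9-Flag EtOH, against 6, 2, and 3 and 3, 2, and 5 in TAM. The groups touched, with 2 peaks in 1 EtOH and 2 TAM libraries. The difference of 2.67 peaks per library passed (adjusted p = 0.0352, exact permutation, above the EtOH mean of 0.8 in 6 of 6 TAM libraries). The call was lost in a window of 10 kb, where the difference was 2.33. The call was also lost when any of 9 of the 11 libraries was left out, all but S100A9-Flag EtOH replicate 1 and S100A9-Flag TAM replicate 2. The difference then lay between 2.08 and 3.08, about as large as with all libraries. All 3 ELK3 sites lay in introns. The first of them, chr12:96613396-96613901, was called in 1 EtOH and 5 TAM libraries, and a further one, chr12:96627881-96628217, in 0 and 5. The sequence at the first summit, chr12:96613611-96613711 (plus strand), is printed as the most often called ELK3 site and held none of the motifs searched.
ELK3 intron: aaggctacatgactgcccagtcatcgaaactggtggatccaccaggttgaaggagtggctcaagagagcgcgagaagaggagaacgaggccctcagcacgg

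ELK1 had 0 peaks in all 5 EtOH libraries, and 2, 1, and 0 in S100A8-Flag TAM and 0, 0, and 3 in S100A9-Flag TAM. The groups overlapped at 0, and the difference of 1.00 peak per library did not pass (adjusted p = 0.320, exact permutation, higher in 3 of 6 TAM libraries). It was 0.5 without S100A9-Flag TAM replicate 3 and 0 in the gene body alone, whereas with every deposited peak ELK1 rose, by 4.42 peaks per library. Its only site, chrX:47517952-47518365, was called in 3 TAM libraries and lay in an intron of the neighboring UXT gene. The summit was in the promoter window of UXT-AS1, a long noncoding RNA gene. No peak with q ≤ 1e-07 was at an ELK1 promoter. In the lists as deposited, which reach q = 0.05, all 6 TAM libraries and 1 EtOH library had a weaker ELK1 promoter peak, with −log10 q between 1.67 and 5.73 in TAM and of 1.95 in EtOH.

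ELF1 and GABPA bind promoters of many broadly expressed genes, GABPA with GABPB as its partner at genes for mitochondrial proteins. At ELF1 the EtOH counts were 3 and 1 for S100A8-Flag and 2, 1, and 2 for S100A9-Flag, and the TAM counts were 3, 3, and 4 and 3, 4, and 2. The groups overlapped, and the difference of 1.33 peaks per library did not pass (adjusted p = 0.112, exact permutation, above the EtOH mean of 1.8 in 6 of 6 TAM libraries). It was 0.833 without S100A8-Flag EtOH replicate 2, 0.25 in the gene body alone, and 3.5 with every deposited peak, and it turned to −0.917 with the 1853 top peaks of each library. The EtOH mean of 1.8 ± 0.837 (SD, n = 5) was the highest of the 10 genes, within its spread of the 1.6 ± 0.548 (SD, n = 5) of ELF3, and 5 of the 9 EtOH peaks summed over libraries were at the promoter of the neighbor WBP4, which encodes a splicing factor and starts close to ELF1 on the other strand. The site chr13:41634141-41636405 spans the start sites of both genes and was called in 4 EtOH and all 6 TAM libraries. The only other site, chr13:41495428-41496207, was called in 2 EtOH and 3 TAM libraries. It lay outside protein-coding genes, with its summit in the promoter window of the long noncoding RNA gene SUGT1P3. The fold enrichment at the site shared with WBP4 was 14.7 in S100A8-Flag EtOH replicate 1, 9.24, 8.04, and 6.69 in the S100A9-Flag EtOH libraries, and between 6.61 and 11.03 in TAM. Where that site was called, the values of the treatments thus overlapped.

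GABPA had 1 and 0 peaks in S100A8-Flag EtOH and 0, 0, and 0 in S100A9-Flag EtOH, and 1, 1, and 1 and 0, 1, and 2 in TAM. The groups overlapped, and the difference of 0.75 peaks per library did not pass (adjusted p = 0.183, exact permutation, above the EtOH mean of 0.2 in 5 of 6 TAM libraries). Of the 6 TAM peaks, 5 were at the promoter that GABPA shares with ATP5PF, a subunit gene of the mitochondrial ATP synthase on the other strand, so the peak cannot be assigned to either gene. That site, chr21:27107121-27108137, was called in 0 EtOH and 5 TAM libraries with fold enrichments from 5.52 to 17.8. The ETS motif beside its summit, here on the other strand and in capitals, is shown within 30 bases at chr21:27107205-27107234 (plus strand), a stretch of an untranslated exon that does not include the summit itself.
GABPA promoter: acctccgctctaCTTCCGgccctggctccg

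The promoters were compared by whether a library had a peak there. At least 1 TAM library had a promoter peak at 8 of the 10 ETS genes, all but ELK1 and EHF, beside 59.8% of all protein-coding genes. ETS1, ETS2, and ELF1 had one in all 6 TAM libraries, beside 13.7% of protein-coding genes that did. In EtOH the promoter peaks were at the same 3 genes, in 3, 1, and 2 of 5 libraries, and 28.6% of protein-coding genes had one in at least 1 EtOH library. Promoter peaks of GABPA were in 0 EtOH and 5 TAM libraries, of ELF3 and ETV4 in 0 and 3, and of ELK3 and ETV5 in 0 and 2. By the exact permutation test on the presence of a promoter peak, 0 of the 8 ETS genes tested passed, beside 0% of 10647 genes, among which the lowest adjusted p was 0.19. At an unadjusted exact p ≤ 0.05 there were 2 ETS genes, ETS2 and GABPA, and 20.9% of all genes tested. For each of the pair the exact p was 0.04 and the adjusted p 0.191, with a promoter peak in 6 of 6 TAM libraries for ETS2 and in 5 of 6 for GABPA. With every deposited peak down to q = 0.05 included, each of the 10 ETS genes had a promoter peak in at least 1 EtOH library, beside 57.8% of protein-coding genes. With the 5′ end of each gene as its only TSS, a promoter peak was left at 4 ETS genes in TAM, beside 50.5% of protein-coding genes, and at 1 in EtOH, beside 21.5%.

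**Figure D3:**
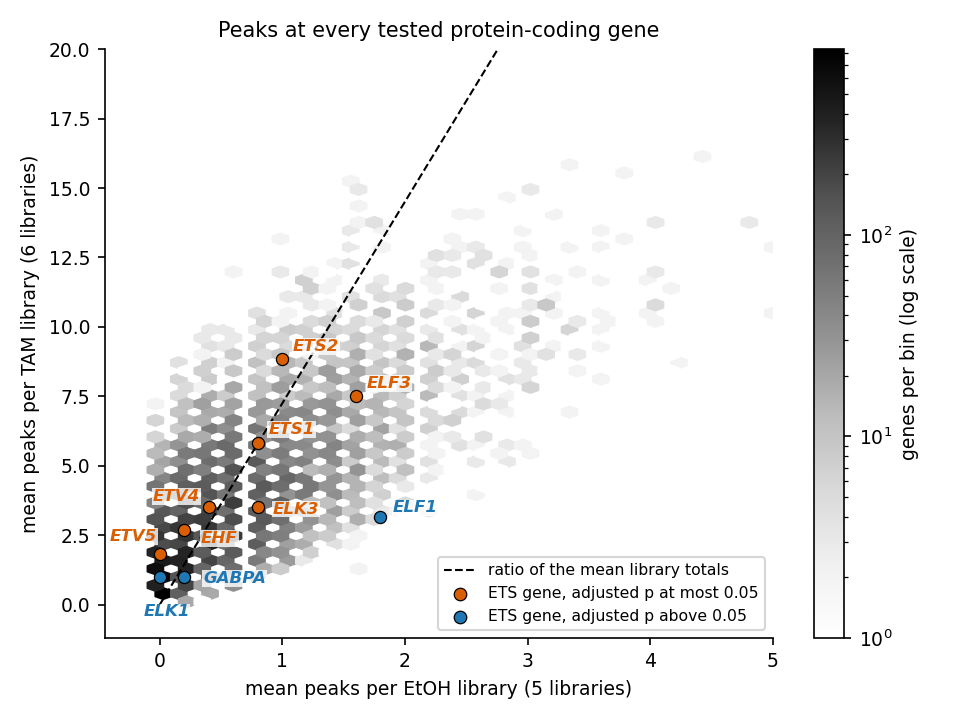
Mean number of peaks per library in EtOH (horizontal axis) and TAM (vertical axis) for the protein-coding genes tested, except 19 of 18126 outside the axes, shaded by the number of genes on a log scale, with the 10 ETS genes as labeled points (orange where the test passed) and a dashed line at the ratio of the mean library totals. ETS2, ELF3, and ETS1 lie highest in TAM at 8.83, 7.5, and 5.83 peaks, and the medians of the ETS genes, 0.6 in EtOH and 3.33 in TAM, lie near those of all genes tested, 0.4 and 2.83.

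Since the TAM lists were longer, each count was also divided by the peaks of its library and given per 10000 of them. On this scale 0 of 10 ETS genes passed the exact permutation test, beside 0% of 18126 genes; at unadjusted p ≤ 0.05 there were 3 ETS genes (ELF1, ELF3, and ETV5) and 22.7% of all genes tested. The median relative difference, TAM minus EtOH, was −0.199 per 10000 over the ETS genes, with 4 higher and 6 lower, and 0.0976 over all genes tested, with 9816 higher and 8310 lower. The lowest adjusted p of any gene on this scale was 0.0831, so that a gene at the smallest p of the design did not pass either, and the count of 0 says nothing about the ETS genes.

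ELF1 stood lowest on the relative scale. Its values were 6.93 and 2.17 peaks per 10000 for S100A8-Flag and 5.56, 5.40, and 4.35 for S100A9-Flag in EtOH, and 1.02, 1.24, and 1.86 and 1.18, 1.67, and 0.491 in TAM. The groups did not overlap, with TAM below EtOH, but the difference of −3.58 per 10000 did not pass (exact p = 0.01, adjusted p = 0.0831, lower in 6 of 6 TAM libraries). It was −1.66 when peaks at the promoters of other genes, here WBP4, were left out, −0.718 with every deposited peak, and lower in TAM in every alternative run. For ELF3 the difference was −1.58 per 10000 (exact p = 0.02, adjusted p = 0.153, below the EtOH mean of 4.30 in 6 of 6 TAM libraries), and its direction depended on which peaks were counted. It turned to 0.506 in a window of 10 kb, to 0.310 in the gene body alone, and to 1.35 when peaks at the promoters of other genes, here RNPEP, were left out, an alternative chosen after seeing the data; it was −4.80 at q ≤ 1e-10, −4.95 with the 1853 top peaks, and −0.0772 with every deposited peak. ETV5, listed at 0 in every EtOH library, had a difference of 0.624 per 10000 (exact p = 0.01, adjusted p = 0.0831, higher in 6 of 6 TAM libraries), which turned to −0.0507 with every deposited peak.

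**Figure D4:**
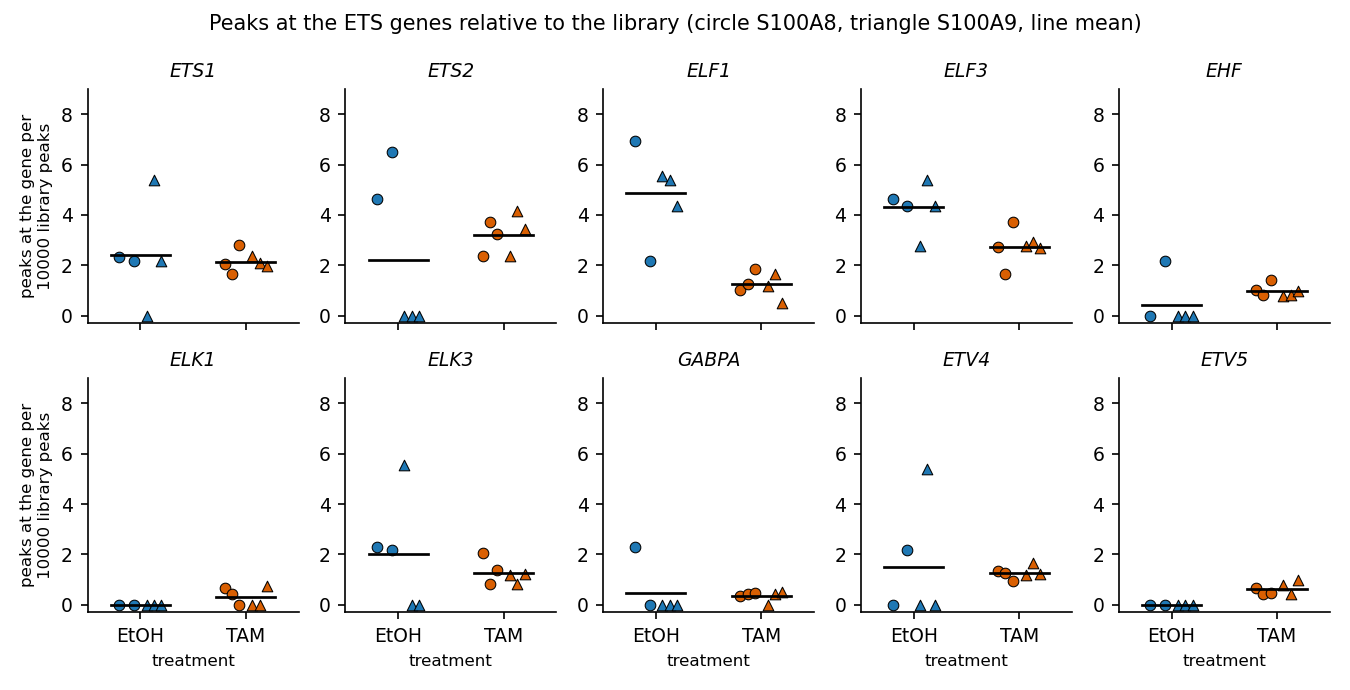
Peaks at each ETS gene per 10000 peaks of the library, with 1 point per library, colored by treatment and shaped by protein, and lines at the group means. ELF1 is the gene with every EtOH point (2.17 to 6.93) above every TAM point (0.491 to 1.86).

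The proteins were compared by permuting them within each treatment and averaging the effect over both treatments, so that differences of opposite direction offset each other. Neither treatment was tested on its own. By the exact permutation test of S100A9-Flag against S100A8-Flag, 0 of 10 ETS genes passed, beside 0% of 18126 genes; at unadjusted p ≤ 0.05 there were 0 ETS genes and 0.822% of all genes tested. The lowest adjusted p of any gene was 1. Over the 10 genes S100A8-Flag had 10 peaks in each of its 2 EtOH libraries, against 4.67 ± 0.577 (SD, n = 3) for S100A9-Flag. As shares of library peaks these were 0.224% ± 0.01 (SD, n = 2) and 0.155% ± 0.0552 (SD, n = 3). With every deposited peak the 2 proteins overlapped in EtOH. In TAM the means were 35.7 ± 6.03 (SD, n = 3) for S100A8-Flag and 42 ± 14 (SD, n = 3) for S100A9-Flag. Averaged over both treatments, S100A9-Flag minus S100A8-Flag was 0.5 peaks per library, and −3.5 without S100A9-Flag TAM replicate 3. Of the 34 sites at the ETS genes, 28 (82.4%) were called in TAM by libraries of both proteins, beside 77.6% of all 30322 sites, and S100A8-Flag alone gave 5.88% and S100A9-Flag alone 11.8%, beside 5.76% and 16.6%.

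The classes of the peaks were also counted. Summed over the 10 genes, the 34 EtOH peaks comprised 6 at the gene's own promoter (17.6%), 13 at the promoter of another gene (38.2%), and 15 distal ones (44.1%). The 233 TAM peaks comprised 44 (18.9%), 24 (10.3%), and 165 (70.8%), respectively. The larger distal share in TAM was not tested. A shift in the same direction was present over all sites: 77.3% of the 20876 distal ones were called in no EtOH library, beside 50.3% of the 9446 at a promoter. Of the 34 sites, 20 (58.8%) were called in no EtOH library, beside 68.9% of all sites, and 8 (23.5%) in every TAM library, beside 14.3%. Per length, the median ETS gene had 1.94 peaks per 100 kb in TAM and the median gene tested 1.90, and the ETS genes ran from 0.725 at GABPA to 7.38 at ETS2.

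Exact matches to 5 motifs, on either strand, were sought up to 100 bp from each summit: CGGAAG for ETS, TGACTCA for AP-1 (TGAGTCA is the same motif on the other strand), CCCCGCCC for KLF/SP1, TGACGTCA for CREB, and TTGCNNAA or TTACNNAA for CEBP. A match is a description, not a site or a cause. Among the 26 distal sites at ETS genes, 12 (46.2%) held the AP-1 motif, beside 34.6% of all 20876 distal sites, and 6 (23.1%) a CEBP motif, beside 21.1%. The ETS motif itself was in 2 (7.69%) of the distal sites, at ELF1 and ELF3, beside 6.97%, and in 3 of 8 promoter-proximal sites (37.5%; GABPA, ETV5, and the RNPEP promoter near ELF3), beside 27.1% of 9446. KLF/SP1 was in 1 promoter-proximal and 1 distal site, beside 24.4% and 4.21%, and CREB in 0 and 1, beside 2.70% and 0.508%. AP-1 and CEBP were in 0 of the 8 promoter-proximal sites, beside 6.42% and 7.71%. Within 50 bp of the summits 11 distal sites at ETS genes (42.3%) held the AP-1 motif, beside 26%, but only 2 (7.69%) a CEBP motif, beside 12.2%, so that the order of the CEBP shares turned. The distal ETS share was then 3.85% beside 3.94%, and CREB was in 0 distal sites, beside 0.34%.

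The other 18 ETS family genes were counted in the same way, and all 18 were tested. Of these, 11 rose in TAM and 0 fell, beside 67.6% of all genes tested that rose, with a median difference of 3 peaks per library beside 2.42. At least 1 TAM library had a promoter peak at 10 of the 18, or 55.6%, beside 59.8% of protein-coding genes. The most TAM peaks were at ERF, a repressor whose window holds many other genes, with 9, 10, and 7 for S100A8-Flag and 9, 7, and 11 for S100A9-Flag, followed by ELF2 with a mean of 7.5 and ELK4 with 5.5. SPIC, a factor of macrophages, had the fewest, with 1 peak in 2 TAM libraries and 0 in the others. Among 10 partners and regulators of ETS proteins, 8 rose and 0 fell, beside the same 67.6%, with a median difference of 3.17 peaks per library. They were led by MRTFA, a coactivator of serum response factor, with 7, 8, and 3 peaks in S100A8-Flag TAM and 12, 8, and 10 in S100A9-Flag TAM, and by CIC, a repressor of the ETV4 and ETV5 genes, with 8, 7, and 4 and 9, 6, and 9. CIC and ERF are neighbors on chromosome 19, so their windows overlap and their counts are not separate. All 10 had a promoter peak in at least 1 TAM library, beside the same 59.8%.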

How the data were processed

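Flag ChIP peak lists of 11 libraries were used. Reads that mapped uniquely to hg19 with Bowtie2 were retained by the authors, who ran MACS2 on each library with that sample's input as the control; versions are not given in the sources used here. The deposited lists hold, for each peak, the fold enrichment over that input, a ratio computed by MACS2. They also hold the −log10 of the q value that the authors obtained from MACS2 and the summit in bp from the peak start. The deposited lists reach q = 0.05, and no read numbers are in them, so depth is unknown and no interval is given.

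Peaks with q ≤ 1e-07 (−log10 q of at least 7) on chromosomes 1 to 22 and X were kept. Genes and TSSs were those of protein-coding genes in GENCODE 44 lifted to GRCh37, and sequences came from the GRCh37 genome. Peaks per library were compared by exact permutation of treatment within protein, or of protein within treatment (200 arrangements, two-sided by doubling the smaller tail), with the effect averaged over both strata and Benjamini-Hochberg adjustment over all genes with a peak in at least 2 libraries. A gene was called at an adjusted p of at most 0.05, and the test was tested on simulated data. Sites were peaks merged at 1 bp of overlap and kept with at least 2 replicates of a condition. The site summit is that of the peak with the highest fold-enrichment percentile within its library, and each site was classed by it alone.

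Named were all 10 genes, the other ETS genes and partners with the most or fewest TAM peaks, and for each gene the promoter site and the 2 other sites called in most libraries; further sites are said to be added. The members and lists were chosen with earlier results of these data known. Alternatives were other q thresholds, equal numbers of peaks, windows, TSSs, replicate rules, overlaps, omission of each library, and a replicate block. RNA and other data of the study were not used here. Python 3.11.15, NumPy 2.4.6, pandas 2.3.3, and matplotlib 3.10.9 were used.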

Additional observations from a re-analysis of the deposited data

How the results depend on the processing

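The cause of the changes was not tested. Under the main settings 7 of the 10 genes and 67.56% of genes tested rose, the 10 genes gained 31.5 peaks per library, and 34 sites were found, 5 at own promoters, 20 with no EtOH call and 8 called in every TAM library. At q ≤ 1e-10, 40.65% of genes rose, the gain was 21.58, and 1 gene had an EtOH promoter peak (13.2% of all genes) and 3 sites were at promoters. With every deposited peak the gain was 64.58, 10 genes had an EtOH promoter peak (57.8%), and 84 sites were found, 13 at promoters, 47 with no EtOH call and 22 in every TAM library.

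With the 1853 top peaks by q in each library, 0 genes of the list and 0% of all genes rose and the difference turned to −1.5 peaks per library, with −0.3333 at ETS2 and −0.9167 at ELF3 and at ELF1, which was not called. On the relative scale 0 genes of the list had an unadjusted p ≤ 0.05 by the exact permutation test, beside 1.65% of genes tested. In that setting 3 genes had a TAM promoter peak (15% of all genes), the difference in genes with a promoter peak was 0.08333 per library against 4.25, and 3 sites were found, 1 at a promoter, 0 with no EtOH call and 0 in every TAM library. A window of 10 kb left 4 genes and 23.05% of genes that rose, a gain of 18.92, and 19 sites, 11 with no EtOH call and 4 in every TAM library. The gene body alone left 0 genes and 0%, a gain of 12.92, and 14 sites, 8 with no EtOH call and 2 in every TAM library.

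With the 5′ end of the gene as the only TSS, 4 genes had a TAM promoter peak (50.5%) and 1 an EtOH one (21.5%), a difference of 1.583 per library. Sites from at least 1 replicate numbered 88 (13 at promoters, 70 with no EtOH call) and from every replicate 20 (3 and 8). Leaving out peaks at promoters of other genes, chosen after seeing the data, gave 43.87% of genes that rose. Without each library in turn, sites at promoters numbered 3 to 6, with 3 when S100A9-Flag TAM replicate 1 was left out, the gain was 27.5 to 34, and 6 or 7 of the 10 genes rose beside 46.42% to 53.04% of all genes. On peaks per 10000, on promoter peaks, and between proteins, the lowest adjusted p of any gene was 0.0831, 0.19, and 1 (exact permutation), so that counts of 0 under the alternatives say nothing about stability.

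The labels do not say whether equal replicate numbers pair the libraries. Deviations of same-numbered EtOH and TAM libraries correlated between −0.0222 and 0.0107, and 1 of 5 correlated best with its own number. With so few libraries in each condition, these correlations cannot decide whether the libraries were paired. With the number as a block, the gain at the 10 genes was 31.67 peaks per library and that of genes with a promoter peak 4.333. The smallest exact p is then 0.0625, so no gene can be called; 7 ETS genes and 61.6% of genes tested reached it.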
